A study of Mus musculus with 7 samples.

Results

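Cytosolic ribosomal protein genes were followed in kidneys of mice that lack the lamin B receptor (LBR), a protein of the inner nuclear membrane that anchors heterochromatin there. The genes were taken by symbol. Every row named Rpl or Rps followed by a number, with or without a final a, x, l or l1, was included, which gave 79 of 24328 gene rows. Of these, 48 encode proteins named for the large subunit (Rpl) and 31 proteins named for the small subunit (Rps). The 79 included 7 paralogs (Rpl3l, Rpl7l1, Rpl10l, Rpl22l1, Rpl39l, Rps4l and Rps27l), relatives of a core ribosomal protein, and 72 core genes. Of all 79, 78 were above 0 in some library and 75 had a mean of at least 5 normalized counts over the mice and were tested.

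Poly(A) RNA was sequenced from right kidneys of C57BL/6J mice at 4 weeks of age. The LBR-null group was 3 mice with both copies of a loss-of-function allele (Lbric-J/ic-J), here mouse 4001, 4002 and 4007, and the control was 1 wild-type (WT) littermate (Lbr+/+), mouse 4009. Every cell of an LBR-null mouse carries the mutant allele. Mice 4001, 4007 and 4009 had 2 libraries each and mouse 4002 had 1, which gave 5 LBR-null and 2 WT libraries. Libraries of a mouse were averaged, since they do not stand for further animals, so that every comparison rests on 3 mice against 1 and the spread among WT mice is unknown.

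Each ribosome is built from a large and a small subunit, and each subunit from ribosomal RNA and a set of ribosomal proteins that are needed in about equal numbers. Many of their mRNAs start with a C followed by an unbroken run of C and T, the terminal oligopyrimidine (TOP) motif, through which mTOR and the RNA-binding protein LARP1 set their translation together. Ribosomal proteins are made in nearly every cell, and their mRNAs are among the most abundant and shortest in the cell. The mouse genome also holds many processed copies of these genes, so that reads from a ribosomal protein mRNA can match several places.

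The start-site windows show what the mRNAs share and where the annotated start does not fall on such a run. Windows of 30 bases, 15 on each side of the annotated start, were read from RefSeq (GRCm38.p6) for 59 of the 79 genes. The capitals mark the TOP run, counted where a C within 5 bases of the start was followed by at least 4 bases that were C or T on the sense strand. The first group of windows has a run, and holds genes with small (Rpl7a, Rpl15) and large (Rps23, Rpl22l1) differences between the groups and Rps27, which was near 0 in the counts. The last 3 windows have none.
Rpl15 (chr14:18270972-18271001, minus strand): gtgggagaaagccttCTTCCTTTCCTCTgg
Rpl28 (chr7:4792950-4792979, plus strand): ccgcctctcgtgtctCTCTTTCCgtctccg
Rpl7a (chr2:26910792-26910821, plus strand): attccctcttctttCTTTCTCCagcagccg
Rps27 (chr3:90213634-90213663, minus strand): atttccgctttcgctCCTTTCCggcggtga
Rps23 (chr13:90923107-90923136, plus strand): gccttcggctgggcggggCTTCCCgcaatg
Rpl22l1 (chr3:28805493-28805522, plus strand): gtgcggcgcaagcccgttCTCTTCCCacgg
Rpl5 (chr5:107900513-107900542, plus strand): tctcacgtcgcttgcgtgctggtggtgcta
Rpl7l1 (chr17:46782642-46782671, minus strand): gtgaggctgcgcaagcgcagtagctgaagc
Rpl3l (chr17:24727811-24727840, plus strand): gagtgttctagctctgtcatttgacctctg
A TOP run was present in 47.5% of the 59 genes and in 21.7% of the 17177 genes of the files that had a RefSeq start. In the 300 bases from 250 before to 50 after the start, the ETS-family motif CCGGAAG, searched on both strands, was present in 39.0% of the 59 genes and in 12.8% of all genes. The YY1 motif AAGATGGC, on both strands, was present in 10.2% and in 3.64%, and the E-box CACGTG, the site of the Myc and Max pair, in 10.2% and in 9.18%. These are matches of letters and do not show binding.

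The library totals came to between 20694016 and 26333284 reads on genes. Lbr itself stood at 322, 340 and 471 normalized counts in mice 4001, 4002 and 4007 and at 398 in the WT mouse, so its mRNA level does not distinguish the genotypes. All 11 kidney segment markers, from proximal tubule to podocyte, were at 292 normalized counts or more in every library. Xist, the RNA of the inactive X chromosome, was at 5785 and 9940 in mice 4001 and 4007 but at 65.3 in mouse 4002 and 35.5 in the WT mouse, and the Y-linked gene Ddx3y was at 141 and 44.3 in the former pair and at 1516 and 1284 in the latter. Mouse 4002 was therefore the LBR-null mouse most like the WT mouse in these sex-linked RNAs, and its values are given beside those of the other mice for the ribosomal protein genes.

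Ribosomal protein mRNAs took a larger part of every LBR-null library than of either WT library. The 79 genes held 5.26% and 4.34% of the reads in the libraries of mouse 4001, 4.14% in mouse 4002, 4.85% and 4.81% in mouse 4007, and 3.15% and 3.18% in the WT mouse. The libraries of the groups did not overlap. By mouse, the share was 4.59% ± 0.387 (SD, n = 3) in LBR-null and 3.16% in the WT mouse, 1.45 times as high. The 2 libraries of mouse 4001 lay further apart than the means of the 3 LBR-null mice did. The difference between the groups was 1.43 percentage points, and 1.28 without the higher library of mouse 4001. No test is given for this share, which is summed over genes taken as a set. In bulk tissue, fewer cells of a type and less RNA per cell cannot be told apart, which holds for every level reported here.

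**Figure D1:**
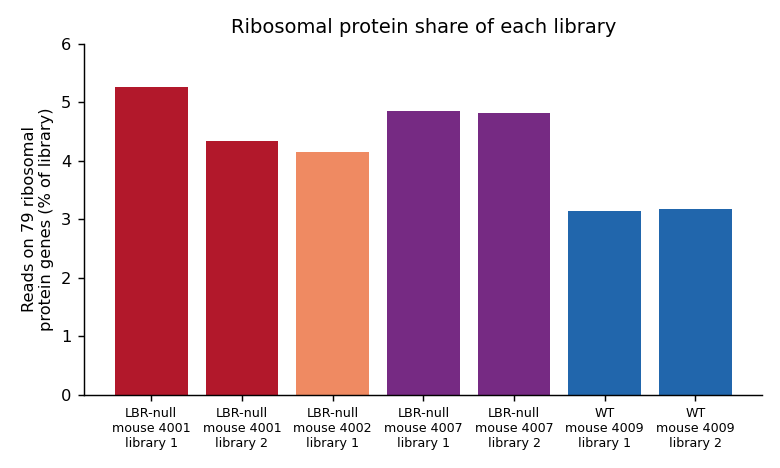
Percent of each library's reads on the 79 ribosomal protein genes (vertical axis), 1 bar per library, coloured by mouse. The 5 LBR-null libraries lie between 4.14% and 5.26% and both WT libraries lie below them, at 3.15% and 3.18%.

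Gene by gene, the difference was modest and nearly always in the same direction, but no single gene passed the test. Of the 75 genes tested, 73 had a higher mean of log2 values in LBR-null mice and 2 a lower one, where 50.5% of all 17283 genes tested were higher. The median difference on the log2(normalized count + 1) scale was 0.55 over the 75 genes and 0.01 over all genes, and 56 of the 75 lay within 0.25 of their median. By limma with Benjamini-Hochberg adjustment over all genes, 0 of the 75 were called higher and 0 lower at an adjusted p below 0.05 and a 2-fold change, and the same rule called 0.0% of all genes in either direction. The smallest adjusted p of a ribosomal protein gene was 0.168 and that of any gene 0.0533. The limma standard error (SE) and p rest on the spread among the LBR-null mice, moved toward that of genes of like level. They assume that WT mice would vary alike. At an unadjusted limma p below 0.05, 4 of the 75 were higher (Rps14, Rpl17, Rpl36 and Rpl22l1) and 0 lower, beside 10.7% of all genes higher and 8.05% lower, a share of the 75 below that of all genes. On the recovered reads, edgeR also put 4 of 75 past this limit, all higher, beside 10.3% of all genes higher and 8.98% lower, and DESeq2 put 15 of 78 past it, all higher, beside 8.82% and 7.23%. The share of members past the unadjusted limit therefore differed with the tool. The count tests called 0 of the ribosomal protein genes in either direction by the same limits. Of all genes, edgeR called 0.00546% higher and 0.218% lower, and DESeq2 3.05% higher and 3.55% lower. With no limit on fold, DESeq2 gave 1 of the 75, Rpl17, an adjusted p below 0.05 (0.038), and it was higher, beside 3.13% of all genes higher and 3.67% lower.

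By library, all 5 LBR-null libraries lay above both WT libraries for 67 of the 78 genes above 0 and below both for 2, whereas 22.2% of all genes above 0 were higher in this way and 21.4% lower. Since libraries from 1 animal share their source, this count describes the libraries only. The extent differed between the mice. Mice 4001, 4002 and 4007 differed from the WT mouse by a median of 0.75, 0.30 and 0.57 over the tested genes. For all genes tested, the same medians were within 0.02 of 0 in each mouse. Within mouse 4001, library 1 was higher than library 2 for 74 of the 75 genes, by a median of 0.36 on the log2 scale, while the libraries of mouse 4007 differed by a median of 0.01 and those of the WT mouse by −0.02. In mouse 4001 the spread between libraries of a single animal was therefore of the order of the group difference.

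**Figure D2:**
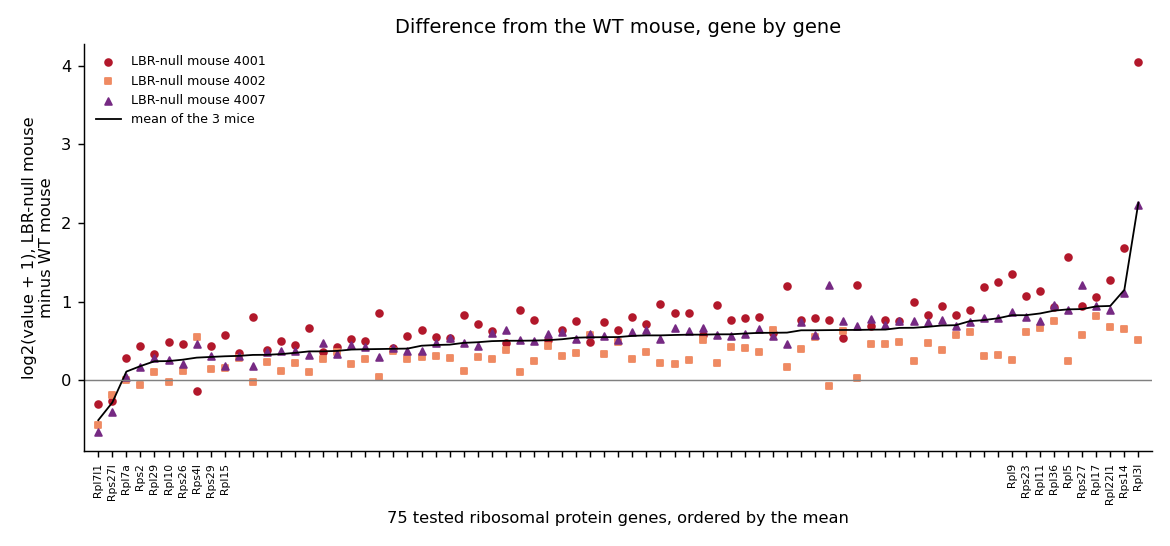
Difference of log2(normalized count + 1) from the WT mouse (vertical axis) for each of the 75 tested genes, ordered by the mean of the 3 LBR-null mice (black line), with 1 point per LBR-null mouse and the 10 lowest and 10 highest genes named. Points lie above 0 for nearly all genes, and those of mouse 4002 are mostly the lowest, with a median of 0.30 against 0.75 and 0.57.

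The mRNAs for proteins of both subunits had median differences of like size. The 41 tested core genes of the large subunit had a median log2 difference of 0.57 and the 29 of the small subunit 0.51, and all 41 and all 29 were above 0. By mouse, the large subunit medians were 0.75, 0.32 and 0.58 in mice 4001, 4002 and 4007, and the small subunit medians 0.75, 0.27 and 0.57. In each mouse both medians lay within 0.05 of each other, which is less than the distance between mice. Large subunit genes took 2.79% ± 0.227 (SD, n = 3) of the reads in LBR-null and 1.91% in the WT mouse, and small subunit genes 1.80% ± 0.161 (SD, n = 3) and 1.26%.

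The largest difference among core genes was that of Rps14, a small subunit protein of the platform. It stood at 30845 and 23468 normalized counts in mouse 4001, 13289 in mouse 4002, 17602 and 18936 in mouse 4007, and 8227 and 8652 in the WT mouse. All LBR-null libraries were above the WT libraries and mouse 4001 was the highest. The log2 difference was 1.15 (SE 0.46, limma adjusted p = 0.255). Rpl17, a protein near the exit of the nascent chain, was more even, with 21706 and 17522 in mouse 4001, 16685 in mouse 4002, 18724 and 17641 in mouse 4007, and 9567 and 9303 in the WT mouse. Its difference was 0.94 (SE 0.33, limma adjusted p = 0.2003), and every LBR-null mouse was above the WT mouse by at least 0.82.

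Rpl36, a large subunit protein (mm9 chr17:56752818-56753666, plus strand, 4 exons), stood at 15562 and 10670 in mouse 4001, 11575 in mouse 4002, 13654 and 13029 in mouse 4007, and 6783 and 6893 in the WT mouse. The 3 mice agreed closely, at 0.94, 0.76 and 0.96 above the WT mouse, with a mean difference of 0.89 (SE 0.30, limma adjusted p = 0.190). Rpl11 and Rpl5 form, with 5S ribosomal RNA, the particle that binds the p53 regulator MDM2 when ribosome assembly is disturbed. Rpl11 stood at 22746 and 17608 in mouse 4001, 14522 in mouse 4002, 15146 and 15867 in mouse 4007, and 9121 and 9234 in the WT mouse, a difference of 0.85 (SE 0.35, limma adjusted p = 0.268). Rpl5 (mm9 chr5:108329521-108338024, plus strand, 8 exons) stood at 23765 and 19666 in mouse 4001, 8714 in mouse 4002, 13643 and 13635 in mouse 4007, and 7276 and 7385 in the WT mouse. Its difference was 0.90 (SE 0.52, limma adjusted p = 0.405), and the mice ranged from 0.25 in mouse 4002 to 1.57 in mouse 4001, so that the partners in this particle had unlike spreads.

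Rps23, a protein of the decoding centre, stood at 21549 and 15821 in mouse 4001, 13652 in mouse 4002, 15683 and 15436 in mouse 4007, and 8707 and 9108 in the WT mouse. The difference was 0.83 (SE 0.34, limma adjusted p = 0.267), and all LBR-null libraries were above the WT libraries. Rpl9, at the base of the large subunit's stalk, was among the genes that varied most between LBR-null mice. It stood at 17371 and 13932 in mouse 4001, 7313 in mouse 4002, 11295 and 10970 in mouse 4007, and 6166 and 6038 in the WT mouse, a difference of 0.83 (SE 0.46, limma adjusted p = 0.385). The X-linked gene Rps4x had the same order of mice, with 26138 and 21357 in mouse 4001, 10439 in mouse 4002, 16792 and 16323 in mouse 4007, and 10078 and 10439 in the WT mouse. Mouse 4002 was only 0.03 above the WT mouse for Rps4x on the log2 scale, against 1.21 and 0.69 in mice 4001 and 4007, the pair with high Xist, and the part of sex in this was not tested. The other X-linked genes, Rpl10, Rpl36a and Rpl39, had differences of 0.25, 0.58 and 0.55, and over all 4 the mouse medians were 0.53, 0.27 and 0.62.

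Other genes were nearly constant among the LBR-null mice. Rpl28, a large subunit protein, stood at 19242 and 15760 in mouse 4001, 16807 in mouse 4002, 16751 and 17460 in mouse 4007, and 13875 and 13722 in the WT mouse. The standard deviation between the LBR-null mice was 0.03 on the log2 scale, all LBR-null libraries were above the WT libraries, and the difference was 0.31 (SE 0.33, limma adjusted p = 0.656). That SE reflects genes of like level more than the spread of Rpl28 itself. For 40 of the 75 genes the standard deviation between LBR-null mice was under 0.2 on the log2 scale.

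The smallest differences among core genes were those of Rpl7a and Rps2. Rpl7a, a large subunit protein, stood at 19735 and 15704 in mouse 4001, 14624 in mouse 4002, 14790 and 14986 in mouse 4007, and 14365 and 14646 in the WT mouse. Mouse 4002 lay between the WT libraries, and the difference was 0.11 (SE 0.34, limma adjusted p = 0.891). Rps2, a small subunit protein at the mRNA entry, stood at 27331 and 22613 in mouse 4001, 17759 in mouse 4002, 20304 and 21484 in mouse 4007, and 18411 and 18610 in the WT mouse, with a difference of 0.18 (SE 0.38, limma adjusted p = 0.838). For Rps2, mouse 4002 was below both WT libraries. Rpl29, Rpl10, Rps26, Rps29 and Rpl15 followed, with differences of 0.24, 0.25, 0.26, 0.30 and 0.31 and limma adjusted p between 0.622 and 0.766. Rps3, with a difference of 0.32, was the remaining core gene above 100 normalized counts whose libraries overlapped beside Rpl7a, Rps2 and Rpl10.

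Of the 68 core genes above 100 normalized counts in the WT mouse, 64 had every LBR-null library above both WT libraries, and 68, 65 and 68 were above the WT mouse in mice 4001, 4002 and 4007. Per kilobase of transcript, the 67 of these genes with a transcript model centred on a median level of 12356 for the WT mouse and 18696 for LBR-null mice, in normalized counts. The standard deviation of their log2 levels per kilobase was 0.82 in both groups. Rpl28, Rps24, Rps12 and Rps15 were among the 5 highest levels per kilobase in the WT mouse, at 22921, 22547, 20242 and 20198, and stood at 28468, 34569, 25400 and 27673 in LBR-null mice. The lowest of the 67, Rps15a, was at 1533 in the WT mouse and 2328 in LBR-null mice. Its annotated transcript is long, at 3721 bases, and the part of this length in its level per kilobase was not tested.

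4 core genes were near 0 in every library, although each encodes a core ribosomal protein. Rpl26 was listed at 0 in 6 of the 7 libraries, with 1 read in all LBR-null libraries together. Rpl30 stood at 1.15 and 3.55 normalized counts in mouse 4001, 0.860 in mouse 4002, 0 and 5.47 in mouse 4007, and 4.72 and 4.52 in the WT mouse. Rps27 stood at 26.4 and 23.1 in mouse 4001, 18.9 in mouse 4002, 31.7 and 28.3 in mouse 4007, and 15.8 and 9.05 in the WT mouse, and Rpl34 lay between 18.1 and 54.7 over all libraries. Because other core genes of like length were abundant, these values are treated as possible losses of reads that match several places, and the differences of the tested ones, Rps27 and Rpl34, rest on few reads. Without the 4 genes, a comparison added after the values were seen, 71 of 73 tested genes were above 0, the median was 0.55 and 66 genes were higher in every LBR-null library. The annotated copies Gm15772, Rpl34-ps1 and Rps27rt were listed at 0 in all mice.

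The amount of copied sequence varied widely among these genes, and its part in their low counts was not tested. In Rps27 (mm9 chr3:90016593-90017573, minus strand, 4 exons), 99.6% of the 100-base windows of the transcript were found elsewhere in the genome, in Rpl26 53.2%, in Rpl30 34.2% and in Rpl34 24.4%. In Rps12, however, 97.8% were found elsewhere, and Rps12 stood at 15684 and 11597 in mouse 4001, 12324 in mouse 4002, 14131 and 12729 in mouse 4007, and 10067 and 10863 in the WT mouse. The 39 tested genes in which at least 50% of windows were single in the genome had a median of 0.55, and the 35 below this limit 0.54. Windows were matched exactly and are shorter than the paired reads, so this split does not show which reads matched several places.

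**Figure D3:**
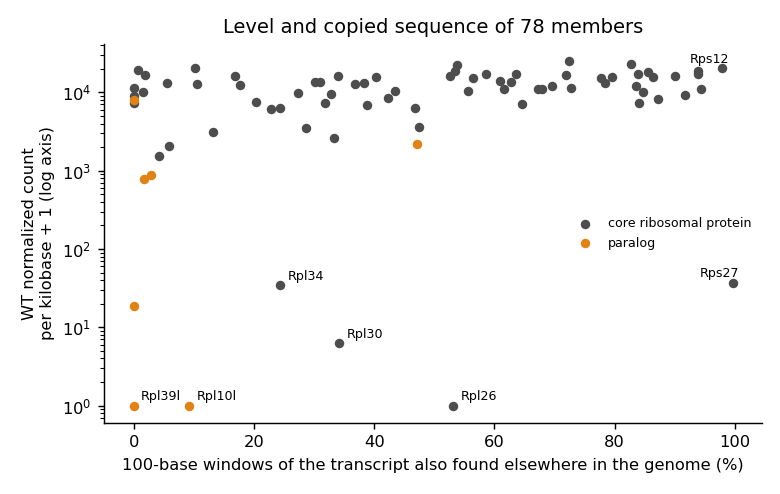
Level in the WT mouse, as normalized counts per kilobase plus 1 on a log axis, against the percent of 100-base windows of the transcript that also occur elsewhere in the mm9 genome, for the 78 genes with a transcript model. Core genes (grey) lie above 1000 except for Rpl26, Rpl30, Rpl34 and Rps27, and Rps12, with 97.8% of windows copied, is among the highest.

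The paralogs did not all share the direction of the core genes. Rpl22l1, the relative of Rpl22 that can take its place in the ribosome, stood at 2945 and 2209 in mouse 4001, 1698 in mouse 4002, 1989 and 1958 in mouse 4007, and 1051 and 1077 in the WT mouse. It was higher in every LBR-null library, with a difference of 0.95 (SE 0.30, limma adjusted p = 0.168), the smallest adjusted p of the set. Rpl7l1, a nuclear protein of large subunit assembly related to Rpl7, stood at 1976 and 1763 in mouse 4001, 1555 in mouse 4002, 1413 and 1500 in mouse 4007, and 2276 and 2318 in the WT mouse. Its values were lower in every LBR-null library, with a difference of −0.51 (SE 0.25, limma adjusted p = 0.347).

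Rps27l, a p53-inducible relative of Rps27, was the other paralog with lower values. It stood at 3891 and 2843 in mouse 4001, 3553 in mouse 4002, 3148 and 2953 in mouse 4007, and 4017 and 4039 in the WT mouse, a difference of −0.28 (SE 0.25, limma adjusted p = 0.590). Rps4l overlapped between the groups, with 702 and 658 in mouse 4001, 1092 in mouse 4002, 971 and 1086 in mouse 4007, and 778 and 716 in the WT mouse. Here mouse 4001 was the lowest LBR-null mouse, opposite to its place for most core genes.

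Rpl3l, the relative of Rpl3 that striated muscle uses, had the largest difference of all members and the largest spread. It stood at 397 and 240 normalized counts in mouse 4001, 26.7 in mouse 4002, 85.7 and 93.9 in mouse 4007, and 20.47 and 16.3 in the WT mouse. The difference was 2.26 (SE 1.20, limma adjusted p = 0.370), and without mouse 4002, the lowest LBR-null mouse, it was 3.14 and passed the limma limits. Without mouse 4001, the highest, it was 1.37 and did not pass. Of the 6 skeletal muscle markers, all 6 were tested, with a median difference of 1.74, and 2 were higher in every LBR-null library. Their summed level came to 1178, 64.5 and 74.7 normalized counts for mice 4001, 4002 and 4007, against 38.2 for the WT mouse, so that mouse 4001 was the highest for the muscle sum as for Rpl3l. Ckm, muscle creatine kinase, stood at 579, 14.6 and 10.6 in mice 4001, 4002 and 4007 and at 19.2 in the WT mouse, and the myosin light chain Myl1 and the actin Acta1 were likewise highest in mouse 4001, at 385 and 191. Myh4, Myh1 and Tnnt3 were lowest in mouse 4001 among the LBR-null mice (9.16, 7.88 and 5.66) and highest in mouse 4007 (17.98, 23.98 and 13.4). The part of muscle RNA in the Rpl3l values was not tested. Rpl39l, a paralog of the male germ line, stood at 4.59 and 0 in mouse 4001, 0 in mouse 4002, 1.86 and 4.56 in mouse 4007 and 0 in the WT mouse, and Rpl10l, another such paralog, was listed at 0 in all libraries.

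**Figure D4:**
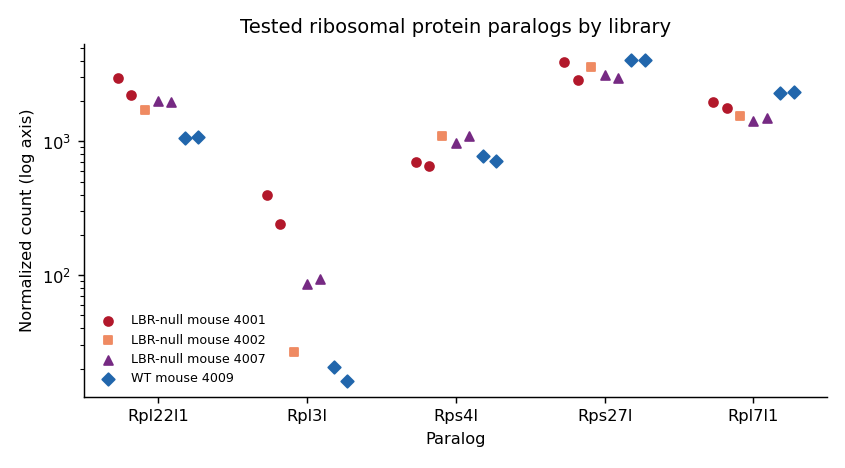
Normalized counts (log axis) of the 5 tested paralogs in each library, with colour and shape by mouse. All LBR-null points lie above the WT points for Rpl22l1 and Rpl3l and below them for Rps27l and Rpl7l1, and those of Rps4l overlap.

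Ribosomal proteins whose symbols fall outside the rule had a like but smaller difference. Of 9 such genes in the files, 8 were above 0 on the log2 scale, the median was 0.37, and 0 were called by limma. Fau, which encodes the small subunit protein eS30 fused to a ubiquitin-like protein, stood at 24210 and 18310 in mouse 4001, 11720 in mouse 4002, 16282 and 16679 in mouse 4007, and 9985 and 9941 in the WT mouse, with a difference of 0.68 (SE 0.42, limma adjusted p = 0.434). Rps3a1 differed by 0.56, Gnb2l1, the scaffold protein RACK1 of the small subunit, by 0.46, and the stalk proteins Rplp0, Rplp1 and Rplp2 by 0.44, 0.37 and 0.20. Rpsa, a small subunit protein also known as the laminin receptor, differed by 0.26. Rpl36al, at −0.01, showed no direction that held across the LBR-null mice, with 5489 and 4088 in mouse 4001, 2850 in mouse 4002, 3208 and 3259 in mouse 4007, and 3609 and 3504 in the WT mouse.

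A list of translation factors and other mRNAs known as TOP mRNAs, whose start sites were not searched here, had differences of like size, and likewise without a call. Of 16 translation factors and other TOP mRNAs, 13 were above 0 and 3 below, the median was 0.56, and 12 were higher in every LBR-null library, beside 22.2% of all genes. The mouse medians were 0.67, 0.26 and 0.65 in mice 4001, 4002 and 4007. Eif4b, a helper of the cap-binding helicase, differed by 0.87 (SE 0.41, limma adjusted p = 0.320) and Eif3e, a subunit of initiation factor 3, by 0.81 (SE 0.29, limma adjusted p = 0.212). Eef1g, a subunit of elongation factor 1, differed by −0.45 (SE 0.26, limma adjusted p = 0.417) and the histone chaperone Nap1l1 by −0.37 (SE 0.30, limma adjusted p = 0.566). Among the ribosomal protein genes themselves, medians by start-site motif are given without a test. The TOP call depends on where the annotated start falls, so genes without a run are not shown to lack the motif. The 28 tested genes with a TOP run had a median of 0.56 and the 28 tested genes without one also 0.56, and the medians with and without the ETS motif were 0.52 and 0.57.

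Mitochondrial ribosomal proteins and the factors that assemble ribosomes had medians below 0. So did the 4760 genes outside the set with a WT level above 1000 normalized counts, at −0.09, with 2831 below 0 and 1929 above. Of the 77 mitochondrial ribosomal protein genes, encoded in the nucleus and used by a separate ribosome, 63 were below 0 and 14 above, with a median of −0.25. At an unadjusted limma p below 0.05, 11 of the 77 were lower and 1 higher, beside 8.05% and 10.7% of all genes, and 0 were called. The mouse medians were −0.16, −0.26 and −0.40 in mice 4001, 4002 and 4007. Mrps25 differed by −0.99 (SE 0.37, limma adjusted p = 0.226), Mrps21 by −0.82 (SE 0.30, limma adjusted p = 0.212), Mrps6 by 0.78 (SE 0.29, limma adjusted p = 0.216) and Mrps9 by 0.37 (SE 0.26, limma adjusted p = 0.493). Of the 40 ribosome biogenesis genes, 27 were below 0 and 13 above, with a median of −0.21, and 0 were called.

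Bysl, a factor of small subunit assembly, had the largest difference among the biogenesis genes. It stood at 196 and 152 in mouse 4001, 202 in mouse 4002, 152 and 161 in mouse 4007, and 429 and 412 in the WT mouse. The difference was −1.25 (SE 0.31, limma adjusted p = 0.118), and the groups did not overlap. The ribosomal RNA methyltransferase Nop2 differed by −0.61 (SE 0.24, limma adjusted p = 0.252). The highest difference of the list was that of Ncl, nucleolin, at 0.39 (SE 0.34, limma adjusted p = 0.581). Eif6, which keeps the large subunit from joining too early, differed by 0.36 (SE 0.49, limma adjusted p = 0.736), and its libraries overlapped.

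Among 12 regulators of ribosomal protein expression, 8 were above 0 and 4 below, with a median of 0.12, and 0 were called. Myc, a transcription factor of growth genes, stood at 353 and 420 in mouse 4001, 264 in mouse 4002, 318 and 332 in mouse 4007, and 130 and 154 in the WT mouse. The difference was 1.17 (SE 0.32, limma adjusted p = 0.136). Mtor, the growth kinase, had the opposite order, with 1400 and 1525 in mouse 4001, 1702 in mouse 4002, 1539 and 1515 in mouse 4007, and 2839 and 2725 in the WT mouse, a difference of −0.83 (SE 0.24, limma adjusted p = 0.141). Rptor, its partner in complex 1, differed by −0.44 and Eif4ebp1, a substrate that restrains cap-dependent initiation, by 0.84, with limma adjusted p of 0.426 and 0.267. These are mRNA levels and say nothing of kinase activity.

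**Figure D5:**
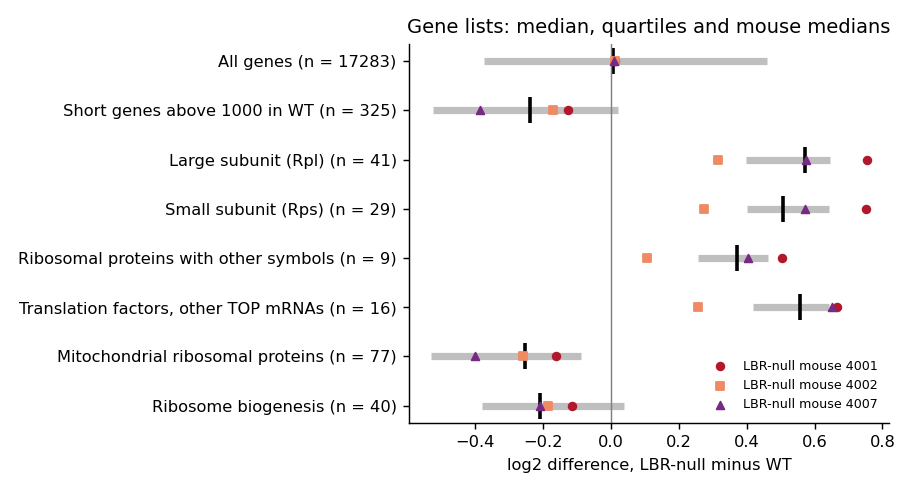
Log2 difference, LBR-null minus WT, of 8 gene lists. The black tick is the median of the limma difference, the grey bar spans the quartiles over genes and the points are the medians in each LBR-null mouse. Cytosolic ribosomal proteins and TOP mRNAs lie right of 0 in every mouse, and mitochondrial ribosomal proteins and biogenesis genes left of 0.

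Other short and abundant genes are given for comparison, and the part of length or level in the ribosomal protein difference was not tested. The 325 other genes with an annotated transcript of at most 1000 bases and a WT level above 1000 normalized counts had a median of −0.24, and 93 of the 325 were above 0. The medians of these short abundant genes in mice 4001, 4002 and 4007 were −0.13, −0.17 and −0.39. All short genes outside the set, regardless of level, had a median of −0.03.

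Markers of other cell types and of dividing cells also differed between the groups. Of all genes above 0, 22.2% were higher and 21.4% lower in every LBR-null library, against which the counts of each list stand. Neutrophil markers had a median difference of 3.31, and 6 of 8 were higher in every LBR-null library, with summed levels of 382 to 2419 normalized counts in LBR-null mice and 80.2 in the WT mouse. Liver-type secreted protein mRNAs had a median of 1.48, with 5 of 8 higher in every LBR-null library and sums of 12988 to 29970 against 7049. Adipocyte markers had a median of −3.53, with 5 of 6 lower in every LBR-null library and sums of 59.3 to 290 against 1654. Proliferation genes had a median of −2.77, with 7 of 8 lower in every LBR-null library and sums of 1622 to 2284 against 4459. Mki67, the marker of cycling cells, stood at 116 and 117 in mouse 4001, 95.4 in mouse 4002, 46.6 and 41.9 in mouse 4007, and 1026 and 1077 in the WT mouse.

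Macrophage markers had a median of −0.76 (7 of 8 lower in every LBR-null library), with sums of 2341 to 2741 against 3921. Lymphocyte markers had a median of −0.60 (7 of 8 below 0, and 3 of 8 lower in every LBR-null library), with sums of 166 to 280 against 347. Erythroid markers had a median of −0.50 (of 7 tested, 4 below 0 and 3 above, and of 8, 3 lower and 2 higher in every LBR-null library), with sums of 1781 to 2548 against 3950. Adrenal markers, of which 3 of 6 were tested, had a median of 1.82, with sums of 170 to 225 against 126. Kidney segment markers had a median of −0.81 (9 of 11 below 0 and 2 above, and 7 lower and 1 higher in every LBR-null library), with sums of 117080 to 205108 against 209941, and Slc22a6, the organic anion transporter of the proximal tubule, differed by −4.19 (SE 0.36, limma adjusted p = 0.0584). The part of cell composition or sex in the ribosomal protein difference was not tested. In mouse 4002, whose Xist and Ddx3y levels were like those of the WT mouse, the ribosomal protein share was 4.14% against 3.16%. In mice 4001 and 4007, with high Xist, it was 4.80% and 4.83%. With 1 mouse against 1 at like Xist levels, sex and genotype cannot be told apart here.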

How the data were processed

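Poly(A) RNA libraries of mouse kidney were aligned to mm9 with STAR 2.6.0 and normalized with DESeq2 1.25.1, per the submitters' processing notes; the counting program and annotation are not given in the sources used here. The deposited values are normalized signal, gene counts that the authors divided by a size factor per library. Dividing each library by its smallest step gave whole reads for 100.0% of values (tolerance 0.01). Libraries were averaged within a mouse. limma 3.58.1 (trend, 2 residual degrees of freedom) was run on log2(value + 1) for the 17283 genes averaging 5 or more over the mice, adjusted by Benjamini-Hochberg. On the recovered reads, edgeR 4.0.16 called 1 gene higher and 40 lower and DESeq2 1.42.0 called 528 and 614, at an adjusted p below 0.05 and 2-fold. Fits were tested on simulated data. Transcript lengths, coordinates and 100-base windows came from GENCODE vM1 on the mm9 assembly, and start-site windows from RefSeq (GRCm38.p6).

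The members and lists were chosen with earlier results of these data known. Named were the 10 highest and 10 lowest differences, all paralogs, the 5 highest and 5 lowest levels per kilobase, genes at 0, the 5 largest spreads between LBR-null mice, ribosomal proteins with other symbols, 2 genes at each end of every other list, and Lbr; further names were added after the values were seen, and some genes that this rule names are not reported here. Nothing in the sources says whether the libraries of a mouse came from separate extractions. Scaling, pseudocount, filter, tool, gene set and left-out mice or libraries were varied.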

Additional observations from a re-analysis of the deposited data

Results flagged for a closer look

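In 4 of 37 sets of LBR-null libraries checked, the highest library stood apart from the others by Dixon's criterion. Chance flags about 1 in 20 independent sets, but the 5 libraries come from 3 mice and the genes vary together, so this rate does not apply to the count. In each it was library 1 of mouse 4001. Its value was 19735 normalized counts for Rpl7a (the others 14624 to 15704), 10804 for Rps26 (7609 to 8384), 10324 for Rps29 (7045 to 7991) and 21549 for Rps23 (13652 to 15821). The cause was not tested.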

How the results depend on the processing

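The 73 of 75 genes with a positive difference numbered 73 under all 15 alternatives, which varied scaling, pseudocount, filter, tool and left-out mice or libraries. The median log2 difference lay between 0.51 and 0.57 under the alternatives of scaling, pseudocount, filter, tool, gene set and WT library, was 0.63 with the first library of each mouse, and was 0.45 to 0.65 with an LBR-null mouse or library left out. The count called higher by limma was 0 to 1 with a mouse or library left out; the 1 was Rpl3l, without mouse 4002, at 3.14. Restricting the set to genes with at least 50% of windows single in the genome, which leaves 42 genes, gave a share difference of 0.707 percentage points (1.43 for all 79) and 34 genes higher in every LBR-null library (67 for all 79). Without the paralogs, 0 genes were lower in every LBR-null library, since both were paralogs. Leaving out library 1 of mouse 4001, gave a median of 0.48 and a share difference of 1.28, and leaving out the 4 core genes near 0 gave 0.55 and 1.43, both alternatives chosen after seeing the data. Of 540 values of single genes under alternatives, 4 reversed, all of Rpl36al: 0.031 with first libraries, 0.15 without mouse 4002, 0.05 without mouse 4007 and 0.01 without WT library 1, within −0.23 to 0.15 over left-out mice and libraries. No paired analysis was possible because the replicate numbers name libraries of a single mouse and the WT group has 1 mouse. Depth was not varied, and the spread among WT mice is unknown.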
